A study of Mus musculus with 14 samples.

Results

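Cd34, Flt3, Satb1, Emb, Cd27, Il7r, Dntt and Notch1 are genes whose transcripts mark the step at which blood stem cells become multipotent progenitors with lymphoid potential. These 8 genes were taken by symbol from 48714 gene labels shared by all libraries, and none had a second copy under its name. Of the 8, 7 had a mean of at least 1 RPKM over all libraries and were among 9921 genes tested for a difference. RPKM counts the reads of a gene per kilobase of its length and per library size. Only Il7r lay below that level.

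The cells were hematopoietic stem cells (HSCs) from bone marrow of C57BL/6 mice, an inbred laboratory strain. They were sorted by calcium level into a calcium-high group ([Ca2+]high, 7 libraries) and a calcium-low group ([Ca2+]low, 7 libraries), with 100 cells in each library. The groups were compared to ask how the transcripts of HSCs differ with their calcium level. Total RNA was copied with not-so-random primers, the second strand was made with Klenow fragment, and Nextera XT libraries were read on a NextSeq system. The labels name no age, treatment or mutation, and no sort gate other than the HSC name and the calcium level. Whether CD34, FLT3 or CD27 protein was part of the gate is therefore not known here. The labels do not say that libraries came from separate animals, so p-values measure only the spread between these samples, which may be technical.

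CD34 is a sialomucin of the cell surface, and in mice long-term HSCs carry little of it while short-term HSCs and multipotent progenitors carry more. FLT3 is a receptor tyrosine kinase that appears on multipotent progenitors as they lose long-term self-renewal, and its ligand drives the expansion of lymphoid-primed cells. Those cells then switch on genes such as Dntt and Il7r and can become B cells or T cells. The T lineage depends on the receptor NOTCH1.

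The windows around the RefSeq starts of 4 of the genes are shown. For Cd34, Flt3 and Satb1 6 of 7 calcium-low libraries lay above every calcium-high library, and Notch1 is set beside them as a gene for which no difference was detected. Each is read 5′ to 3′ on the strand of the gene, with 250 bases before the start and 50 bases after it (GRCm38.p6, RefSeq), and capitals mark the motif letters that were found.
Cd34 (chr1:194938571-194938870, plus strand): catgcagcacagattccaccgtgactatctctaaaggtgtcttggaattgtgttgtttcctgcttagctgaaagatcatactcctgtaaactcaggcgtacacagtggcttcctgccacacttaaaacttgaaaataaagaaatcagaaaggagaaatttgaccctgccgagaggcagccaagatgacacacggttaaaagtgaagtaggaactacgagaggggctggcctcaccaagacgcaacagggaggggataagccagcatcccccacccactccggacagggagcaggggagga
Flt3 (chr5:147400440-147400739, minus strand): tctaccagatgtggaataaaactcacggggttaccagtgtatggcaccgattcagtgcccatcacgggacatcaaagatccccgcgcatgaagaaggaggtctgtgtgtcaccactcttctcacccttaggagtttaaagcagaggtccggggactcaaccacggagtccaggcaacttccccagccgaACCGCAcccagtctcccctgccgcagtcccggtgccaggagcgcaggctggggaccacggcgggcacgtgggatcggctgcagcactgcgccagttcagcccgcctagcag
Satb1 (chr17:51833241-51833540, minus strand, the most upstream of its 5 RefSeq starts): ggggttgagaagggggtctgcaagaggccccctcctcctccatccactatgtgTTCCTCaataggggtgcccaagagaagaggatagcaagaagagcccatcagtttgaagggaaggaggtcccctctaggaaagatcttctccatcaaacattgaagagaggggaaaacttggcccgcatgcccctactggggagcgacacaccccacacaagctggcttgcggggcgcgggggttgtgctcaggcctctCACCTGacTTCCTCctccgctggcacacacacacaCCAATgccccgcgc
Notch1 (chr2:26503773-26504072, minus strand): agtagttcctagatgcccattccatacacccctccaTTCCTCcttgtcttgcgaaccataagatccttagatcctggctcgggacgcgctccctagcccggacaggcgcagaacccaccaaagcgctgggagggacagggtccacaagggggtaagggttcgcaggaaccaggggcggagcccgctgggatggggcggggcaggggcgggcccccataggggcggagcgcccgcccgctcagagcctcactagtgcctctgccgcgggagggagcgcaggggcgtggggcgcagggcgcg
Short letter runs were searched on both strands. For RUNX factors these were TGTGGT and, as a variant, TGCGGT. For E proteins the runs searched were CAGCTG and, as a variant, CAGGTG. For ETS factors such as PU.1 the run was GAGGAA, and for GATA factors it was AGATAA. The CCAAT box was searched by its name letters, and none of the matches marked here overlaps another. The Cd34 window held none of them. The Flt3 window held TGCGGT once, on the opposite strand with its first base at position -61 from the start, a motif present in 6.45% of all 32851 promoter windows. The Satb1 window held GAGGAA at 2 places and CAGGTG and CCAAT at 1 place each, and the Notch1 window held GAGGAA at 1 place. GAGGAA was present in 28.3% of all windows, CAGGTG in 20.2% and CCAAT in 37.4%. In the windows not shown, Emb held CAGGTG at 2 places, Dntt held AGATAA at 1 place, Il7r held TGTGGT and CCAAT, and Cd27 held none. The remaining Satb1 windows, numbered from the most upstream start, were searched too. Window 3 held CAGCTG and CAGGTG, windows 4 and 5 held GAGGAA, and window 2 held none. Windows 4 and 5 overlap, and the GAGGAA match of window 5 is a site that window 4 holds too. CAGCTG was present in 16.3% of all windows, AGATAA in 11.2% and TGTGGT in 16.8%. The GC share was 50% for Cd34, 61.0% for Flt3, 59.0% for Satb1 and 68.3% for Notch1. A match of letters is a description of the window and not a sign that a factor binds there.

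Before the genes are taken in turn, some features of the libraries bear on all of them. Reads recovered from the RPKM steps came to 3.58 to 10.3 M per library in the listed genes. Replicates 1 to 3 of both groups were shallower than replicates 4 to 7, and these sets are treated as library sets although the labels do not name them. All 10 HSC markers were above 1 RPKM on average, and Kit, the stem cell factor receptor, was at 59.3 to 74.6 RPKM in calcium-high libraries and at 60.9 to 76.1 RPKM in calcium-low libraries. The summed HSC markers were at 170 to 340 RPKM in calcium-high libraries and at 164 to 257 RPKM in calcium-low libraries, and 0 of the 10 were called higher in calcium-high libraries without the replicate block described below, 3 with it (0.484% of all tested genes were) and 6 with limma-voom on recovered reads (4.48%). Calcium-low replicate 3 stood apart: its 10 neutrophil markers summed to 766 RPKM, against at most 27.7 RPKM in the other calcium-low libraries, and its 8 genes of the G2 and M phases to 237 RPKM, against at most 25.9 RPKM. Its erythroid markers summed to 156 RPKM, against at most 33.9 RPKM, and calcium-high replicate 3 had the highest erythroid sum of its group, 83.8 RPKM. The highest neutrophil sum of the calcium-high group was 77.3 RPKM, in a library other than its replicate 3 (3.90 RPKM). Results for the members that rest on replicate 3 are given with and without it, while marker fold changes are given with it only. Libraries with the same number were correlated in their deviations from the group means, but only 5 of 14 correlated best with their own number. Library set means were not taken off in that check, so it cannot tell pairing by number from a shared library set. A fit that takes the replicate number as a block is given beside the fit without it.

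Cd34 and Flt3 were lower in calcium-high HSCs when libraries were compared by replicate number, with a calcium-high mean of 0.503 times the calcium-low mean for Cd34 and 0.345 times for Flt3. Both passed the test across all genes with the replicate block, and neither passed without it. Satb1 had a ratio of 0.478 and passed in neither fit, though it did on recovered reads, without calcium-low replicate 3 and in replicates 4 to 7 alone. Notch1 had nearly equal means, with a ratio of 1.02. Emb and Cd27 had ratios of 0.740 and 0.781, and neither passed. Dntt and Il7r had few or no reads in several libraries. Genes of other programmes leaned either way. Negative log2 fold changes were found for 7 of 7 tested genes of the G2 and M phases and 5 of 6 tested neutrophil markers. Their medians were -0.61 and -0.45, with calcium-low replicate 3 included, and none passed with or without the block. Some of these genes reached the level for testing through the calcium-low group, so these signs are a description only. Ngp was at most 0.216 RPKM in calcium-high libraries and reached 98.4 RPKM in the calcium-low group, and Camp 0.210 and 24.5 RPKM. Positive log2 fold changes were found for 9 of 10 HSC markers and 6 of 6 tested erythroid markers, with medians of 0.50 and 0.33. The summed G2 and M phase genes had medians of 8.60 RPKM in the calcium-high group and 12.7 RPKM in the calcium-low group, and the summed neutrophil markers had medians of 7.50 RPKM in the calcium-high group and 9.88 RPKM in the calcium-low group. The part of these programmes in the differences of Cd34 and Flt3 was not tested.

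**Figure D1:**
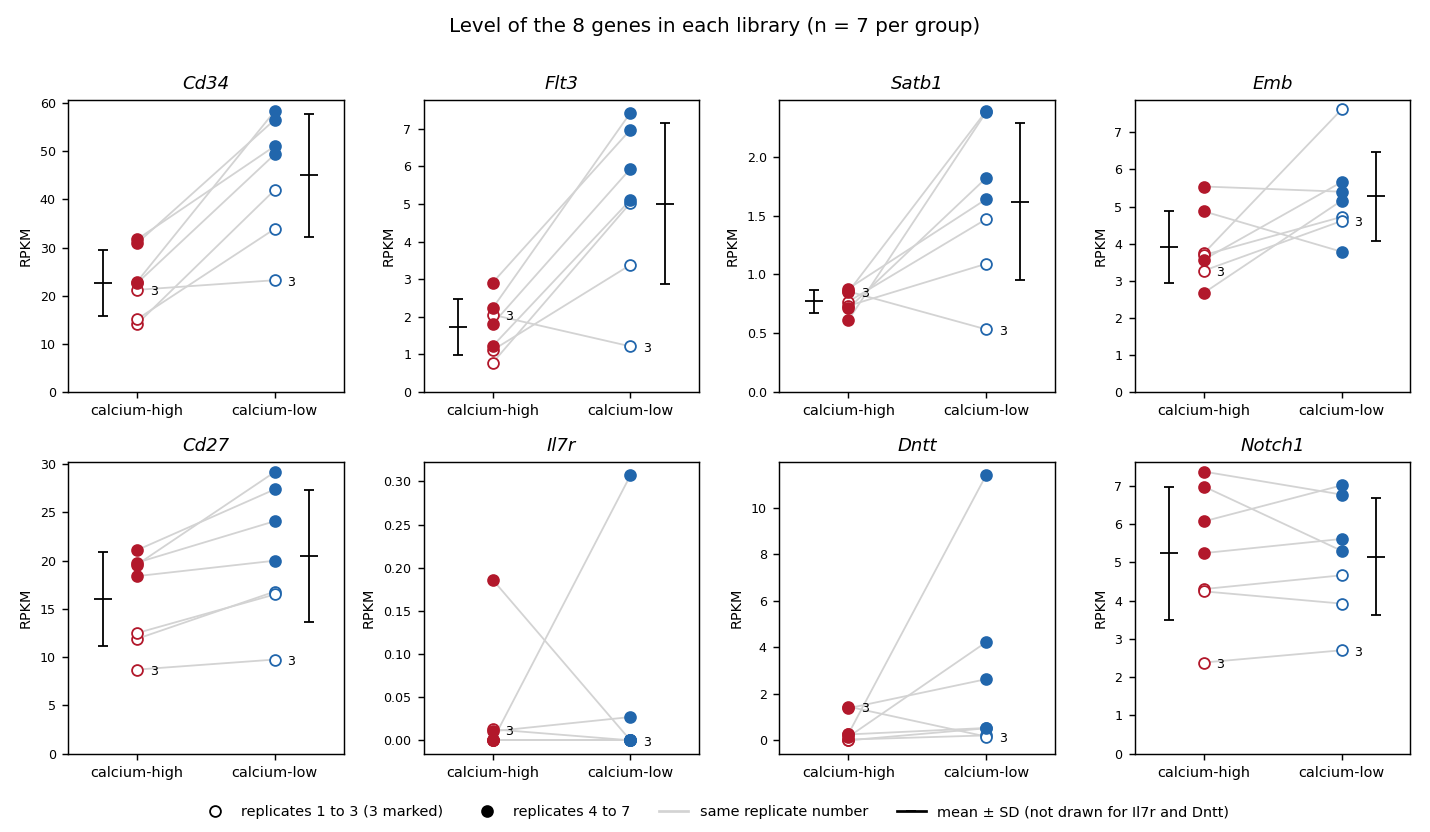
RPKM of the 8 genes in each library, calcium-high on the left and calcium-low on the right of each panel, with grey lines joining libraries of the same replicate number. Open points are replicates 1 to 3, filled points replicates 4 to 7, the number 3 marks replicate 3, and black marks give the mean ± SD of 7 libraries except for Il7r and Dntt. In the Cd34, Flt3 and Satb1 panels 6 of 7 calcium-low points lie above every calcium-high point, and the exception is replicate 3.

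Cd34 (chromosome 1, 194938819 to 194961279, plus strand, GRCm38) was the most abundant of the 8 genes per length in both groups. It was at 14.1, 22.6 and 31.7 RPKM (lowest, median and highest) in calcium-high libraries, and at 23.2, 49.4 and 58.4 RPKM in calcium-low libraries. The ranges met at calcium-low replicate 3 alone, since the other 6 calcium-low libraries lay above every calcium-high library. These levels rest on 566 to 2588 reads per calcium-high library and 1381 to 5690 reads per calcium-low library. The mean was 22.6 ± 6.84 RPKM in the calcium-high group and 45.0 ± 12.8 RPKM in the calcium-low group (SD, n = 7 each). The log2 fold change of log2(RPKM + 1), calcium-high minus calcium-low, was -0.96 with an SE of 0.22 without the block and 0.14 with it. In limma the adjusted p was 0.138 without the block and 0.0272 with it. Cd34 was lower in the calcium-high library of all 7 pairs, with calcium-high to calcium-low ratios of 0.336 to 0.913. Of all tested genes 3.02% were lower in all 7 pairs, and among the 7 tested genes of the set these were Cd34 and Cd27. Pair 3 gave the ratio nearest to 1.

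Flt3 (chromosome 5, 147330741 to 147400489, minus strand, GRCm38), the receptor of FLT3 ligand, was at 0.774, 1.81 and 2.91 RPKM (lowest, median and highest) in calcium-high libraries, and at 1.21, 5.11 and 7.43 RPKM in calcium-low libraries. Here too the overlap came from calcium-low replicate 3, at 1.21 RPKM, while the other 6 calcium-low libraries were above all 7 calcium-high libraries. The mean was 1.73 ± 0.744 RPKM in the calcium-high group and 5.01 ± 2.15 RPKM in the calcium-low group (SD, n = 7 each), from 77 to 506 reads per calcium-high library and 165 to 1526 reads per calcium-low library. The log2 fold change was -1.08 with an SE of 0.26 without the block and 0.21 with it, and the limma adjusted p was 0.152 without the block and 0.0364 with it. Flt3 was lower in the calcium-high library of 6 of 7 pairs, and in pair 3 it was higher, at 1.70 times the calcium-low library. The pseudocount of 1 RPKM shrinks changes of genes near 1 RPKM. With a pseudocount of 0.1 RPKM the log2 fold change was -1.42, with a limma adjusted p of 0.192. Limma-voom on recovered reads, which does not use that pseudocount and also weights libraries by quality, gave -1.76 with an SE of 0.25 (adjusted p = 2.34e-04). Which of these choices lowers the adjusted p was not tested. In these bulk samples fewer cells that carry a transcript and less of it per cell cannot be told apart.

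Satb1 (chromosome 17, 51736187 to 51833290, minus strand, GRCm38) encodes a chromatin organizer that acts in T cell development and in lymphoid priming of stem cells. It was at 0.610, 0.768 and 0.878 RPKM (lowest, median and highest) in calcium-high libraries, and at 0.532, 1.64 and 2.39 RPKM in calcium-low libraries. The calcium-high libraries were tightly grouped, with a coefficient of variation of 12.5%, against 41.5% in calcium-low libraries. Calcium-low replicate 3 was the lowest of all 14 libraries, and the other 6 calcium-low libraries were again above every calcium-high library. Every calcium-high value was under 1 RPKM, so Satb1 entered the tested genes through its calcium-low libraries, and its calls below are a description and not support for the set. The mean was 0.772 ± 0.0967 RPKM in the calcium-high group and 1.62 ± 0.670 RPKM in the calcium-low group (SD, n = 7 each). On the log2(RPKM + 1) scale the difference was -0.52 (SE 0.16), with a limma adjusted p of 0.381 without the block and 0.124 with it. With a pseudocount of 0.1 RPKM the difference was -0.86 (limma adjusted p = 0.429). With limma-voom on recovered reads, which also weights libraries by quality, it was -1.34 (SE 0.19, adjusted p = 2.79e-04). Without calcium-low replicate 3 it was -0.64 on the log2(RPKM + 1) scale (limma adjusted p = 0.0369). In replicates 1 to 3 alone, which hold both libraries numbered 3, the log2 fold change was -0.16, and in replicates 4 to 7 alone it was -0.79.

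Over the 9921 tested genes 0 were called lower without the block (0% of genes), and 669, or 6.74%, had an unadjusted limma p under 0.05 in either direction. With the block 43 genes, or 0.433%, were called lower, and 2 of the 7 tested members, Cd34 and Flt3, were among them, while 48 genes, or 0.484%, were called higher. With limma-voom on recovered reads 256 genes, or 2.58%, were called lower, and 3 of the 7 were, with Satb1 added. With the library set as a term 0.292% of tested genes were called lower, Cd34 and Flt3 among them. The block with limma-voom, an alternative added after the values were seen, called 2.94% of tested genes lower and 5 of the 7 members, with Satb1, Cd27 and Dntt added. Satb1 and Dntt had calcium-high means under 1 RPKM and reached the level for testing through the calcium-low group, so the counts that hold them do not support a difference of the members. Of all tested genes 29, or 0.292%, had all 7 calcium-high libraries below all calcium-low libraries other than replicate 3, and Cd34, Flt3 and Satb1 were 3 of these. That count was chosen after the values were seen. No member was called higher in any fit.

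**Figure D2:**
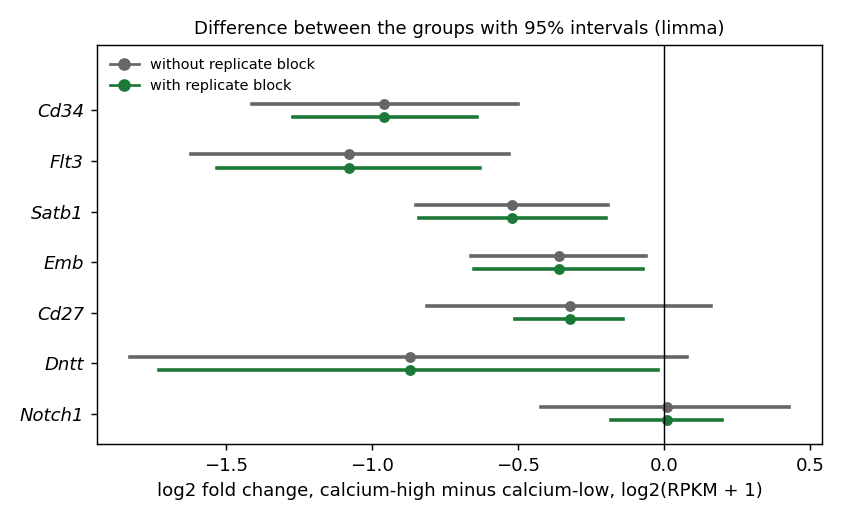
Log2 fold change of log2(RPKM + 1), calcium-high minus calcium-low, for the 7 tested genes with 95% intervals from limma, grey without and green with the replicate block (7 libraries per group). The intervals of Cd34, Flt3, Satb1 and Emb lie below 0 in both fits before adjustment over all genes, that of Cd27 narrows most with the block (-0.81 to 0.16 without it and -0.51 to -0.14 with it), and that of Notch1 includes 0 in both.

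The dependence on replicate 3 and on the library sets was as follows. Without calcium-low replicate 3, the limma adjusted p was 0.0347 for Cd34 and 0.0124 for Flt3 with no block, and 0.131% of tested genes were called lower. Without both libraries numbered 3 it was 0.0120 for Cd34, 0.00287 for Flt3 and 0.0164 for Satb1, and 0.413% of tested genes were called lower. With the block and without pair 3 the same 3 members passed, and 1.39% of tested genes were called lower. With the block, leaving out pair 1, 2, 4, 6 or 7 ended both calls (limma adjusted p = 0.0571 to 0.149 for Cd34 and 0.0885 to 0.168 for Flt3), and leaving out pair 5 kept Cd34 (0.0478) but not Flt3 (0.0716). Within replicates 4 to 7 alone the log2 fold change was -0.99 for Cd34 (limma adjusted p = 7.96e-04) and -1.29 for Flt3 (0.00110), and 1.78% of tested genes were called lower. Within replicates 1 to 3 alone it was -0.92 for Cd34 and -0.78 for Flt3, each with a limma adjusted p of 0.421. The direction of Cd34 and Flt3 was thus the same in both sets, and only the deeper set with 4 libraries per group passed. What part the neutrophil, erythroid and cell cycle transcripts of calcium-low replicate 3 have in its levels of these genes was not tested.

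Emb (chromosome 13, 117208536 to 117274415, plus strand, GRCm38) encodes embigin, a membrane glycoprotein that chaperones monocarboxylate transporters and is found on early progenitors. It was at 2.67, 3.69 and 5.54 RPKM (lowest, median and highest) in calcium-high libraries, and at 3.78, 5.16 and 7.62 RPKM in calcium-low libraries. The ranges overlapped, with 5 of 7 calcium-high libraries below all calcium-low ones and 2 of 7 calcium-low libraries above all calcium-high ones. The mean was 3.91 ± 0.975 RPKM in the calcium-high group and 5.28 ± 1.20 RPKM in the calcium-low group (SD, n = 7 each), from 138 to 453 reads per calcium-high library and 192 to 504 reads per calcium-low library. Its log2 fold change was -0.36 (SE 0.14), with a limma adjusted p of 0.617 without the block and 0.239 with it, and 5 of 7 pairs had the lower value in the calcium-high library. In calcium-low replicate 3 Emb was at 4.61 RPKM, inside the range of the other calcium-low libraries, and its highest value was in calcium-low replicate 1.

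Cd27 (chromosome 6, 125232622 to 125237010, minus strand, GRCm38), a receptor of the tumour necrosis factor receptor family that is carried by short-term HSCs and lymphoid progenitors, was second in abundance. It was at 8.71, 18.4 and 21.1 RPKM (lowest, median and highest) in calcium-high libraries, and at 9.75, 20 and 29.2 RPKM in calcium-low libraries. The groups overlapped, and the library sets differed in both: the calcium-high means were 11.1 RPKM in replicates 1 to 3 and 19.8 RPKM in replicates 4 to 7, and the calcium-low means 14.3 and 25.2 RPKM. Within pairs, however, the calcium-high library was lower in 7 of 7, at ratios of 0.673 to 0.919. Its log2 fold change was -0.32, with an SE of 0.23 without the block and 0.09 with it, and a limma adjusted p of 0.928 without the block and 0.105 with it. Cd27 overlaps Vamp1 on the opposite strand, which had a mean of 2.33 RPKM, and whether counting used strand is not given in the sources used here.

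Dntt (chromosome 19, 41029275 to 41059525, plus strand, GRCm38) encodes terminal deoxynucleotidyl transferase, which adds bases at the joints of antigen receptor genes and is an early mark of lymphoid specification. It was at 0, 0.253 and 1.45 RPKM (lowest, median and highest) in calcium-high libraries, and at 0.163, 0.531 and 11.4 RPKM in calcium-low libraries. The highest values were in calcium-low replicates 5, 6 and 4, which alone lay above all calcium-high libraries, while the other 4 calcium-low libraries fell inside the calcium-high range. The reads behind these levels were 0 to 86 per calcium-high library and 7 to 839 per calcium-low library. The coefficient of variation was 125% in calcium-high and 145% in calcium-low libraries, the widest among the tested members. Its log2 fold change was -0.87 (SE 0.45, limma adjusted p = 0.80 without the block and 0.346 with it), and 6 of 7 pairs had the lower value in the calcium-high library, with pair 3 the exception. The difference did not exceed the spread between libraries by these tests. Its mean over both groups, 1.66 RPKM, passed the level for testing mainly through calcium-low replicates 4 to 6.

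Il7r (chromosome 15, 9505788 to 9530176, minus strand, GRCm38), the alpha chain of the interleukin-7 receptor and a defining mark of common lymphoid progenitors, was nearly absent. It was listed at 0 in 4 of the 7 calcium-high libraries and in 5 of the 7 calcium-low libraries, where 3 reads would have given 0.0260 to 0.0643 RPKM in calcium-high and 0.0247 to 0.0633 RPKM in calcium-low libraries. Its highest values were 0.186 RPKM from 19 reads in calcium-high replicate 5 and 0.307 RPKM from 34 reads in calcium-low replicate 6. Calcium-high replicates 3 and 4 had 1 read each and calcium-low replicate 4 had 3 reads. Il7r lay under the level for testing. In the alternative fit without that filter its log2 fold change was -0.02 (SE 0.06, limma adjusted p = 0.959), so no difference was detectable from these reads.

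Notch1 (chromosome 2, 26457903 to 26516663, minus strand, GRCm38) was at 2.38, 5.24 and 7.37 RPKM (lowest, median and highest) in calcium-high libraries, and at 2.70, 5.30 and 7.01 RPKM in calcium-low libraries. The ranges nearly coincided, and the lowest library of each group was replicate 3. The mean was 5.23 ± 1.75 RPKM in the calcium-high group and 5.14 ± 1.53 RPKM in the calcium-low group (SD, n = 7 each). The log2 fold change was 0.01, with a 95% interval of -0.42 to 0.43 without the block and -0.18 to 0.20 with it, and 4 of 7 pairs had the lower value in the calcium-high library. The limma adjusted p was 0.999 without the block and 0.983 with it. As with Cd27, the larger gap was between library sets, at 3.64 RPKM in replicates 1 to 3 and 6.42 RPKM in replicates 4 to 7 of the calcium-high group, and 3.76 and 6.17 RPKM in the calcium-low group.

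Ranked by mean RPKM, the order in calcium-high libraries was Cd34, Cd27, Notch1, Emb, Flt3, Satb1, Dntt and Il7r. In calcium-low libraries it was Cd34, Cd27, Emb, Notch1, Flt3, Dntt, Satb1 and Il7r. Cd34 exceeded Cd27 in all 7 libraries of each group although their ranges overlapped. Notch1 exceeded Emb in 6 of 7 calcium-high libraries, whereas Emb exceeded Notch1 in 4 of 7 calcium-low libraries, so these neighbours do not differ beyond their spread in calcium-low HSCs. Flt3 was below Emb in all 7 calcium-high libraries, while in calcium-low libraries Notch1 exceeded Flt3 in only 3 of 7. Dntt and Satb1 were likewise not in a stable order, with Satb1 above Dntt in 5 of 7 calcium-high libraries and Dntt above Satb1 in 3 of 7 calcium-low libraries.

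To compare the genes with each other apart from the scale of a library, the ratio of each member to each other member was taken within a library. The 6 members above 0 in all 14 libraries and with a mean of at least 1 RPKM were used, which makes 15 ratios. This comparison was added after the values were seen. By an exact two-sided permutation test over the 7 and 7 libraries, 6 of the 15 log2 ratios differed between the groups at a Benjamini-Hochberg adjusted p under 0.05. Cd34 per Notch1 was at 3.23 to 8.91 in calcium-high and at 7.55 to 10.1 in calcium-low libraries, a log2 difference of -0.99 (exact permutation, adjusted p = 0.0204). Flt3 per Notch1 was at 0.180 to 0.861 in calcium-high and at 0.446 to 1.24 in calcium-low libraries (log2 difference -1.48, exact permutation, adjusted p = 0.0204). Cd34 per Cd27 was at 1.16 to 2.43 in calcium-high and at 2.0 to 2.50 in calcium-low libraries (log2 difference -0.65, exact permutation, adjusted p = 0.0204). Relative to Notch1, Cd34, Flt3 and Cd27 were each lower in calcium-high HSCs by this test, and relative to Cd27, Cd34 and Flt3 were. Satb1 per Notch1 is also among the 6. Satb1 reached the mean of 1 RPKM through its calcium-low libraries, so its ratio is a description and not support for a difference.

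The ratios among Cd34, Flt3 and Satb1 themselves did not pass. Cd34 per Flt3 was at 10.3 to 18.7 in calcium-high and at 6.88 to 19.2 in calcium-low libraries (log2 difference 0.49, exact permutation, adjusted p = 0.0892). Cd34 per Satb1 was at 18.4 to 44.6 in calcium-high and at 23.7 to 43.6 in calcium-low libraries (log2 difference -0.06, exact permutation, adjusted p = 0.794). The near-zero mean for Cd34 per Satb1 joins -0.68 in replicates 1 to 3 and 0.41 in replicates 4 to 7. Flt3 per Satb1 was at 1.01 to 3.42 in calcium-high and at 2.15 to 4.08 in calcium-low libraries (log2 difference -0.54, exact permutation, adjusted p = 0.0892). When the exact test instead flipped signs over the 7 pairs, where the smallest unadjusted p possible is 0.0156, none of the 15 ratios passed, and the lowest adjusted p was 0.0938. Without calcium-low replicate 3 the exact permutation test called 11 of 15 ratios, and without any other library 4 to 8.

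**Figure D3:**
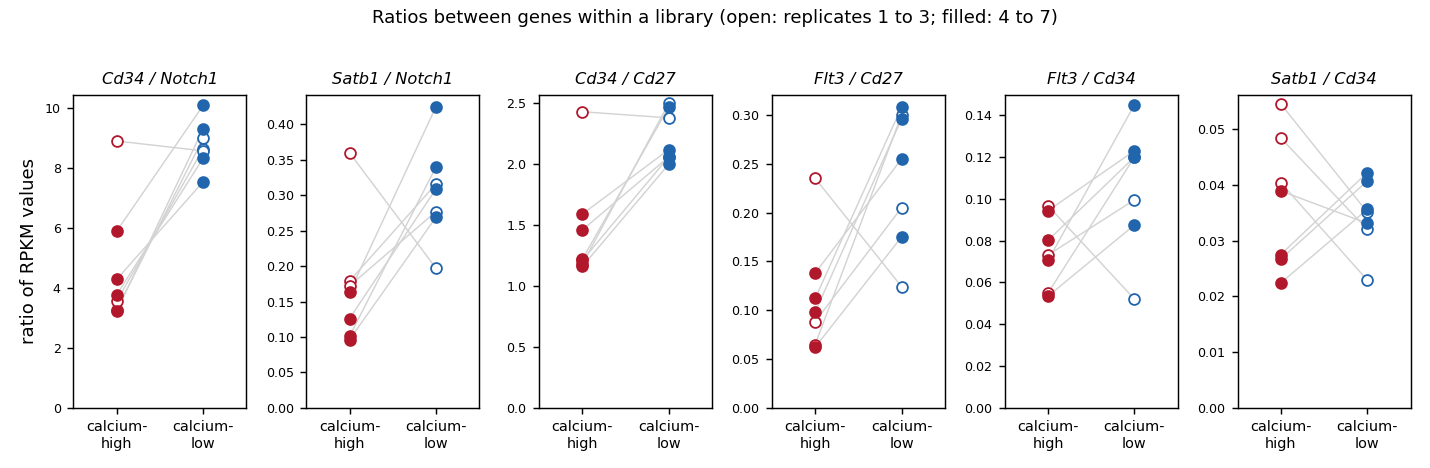
Ratio of RPKM values of 2 genes within a library, calcium-high on the left and calcium-low on the right, for 6 of the gene pairs, with grey lines joining libraries of the same replicate number, open points for replicates 1 to 3 and filled points for replicates 4 to 7. In the Cd34 / Notch1 panel 6 of 7 calcium-high libraries lie below all calcium-low libraries, whereas in the Satb1 / Cd34 panel the groups overlap throughout.

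The members were then set against each other across the libraries of each group. Of 21 relations per group between the 7 tested members (42 in all, log2(RPKM + 1), exact permutation over pairings), 2 had an adjusted p under 0.05 by Pearson's r in calcium-high libraries and 10 did in calcium-low libraries. By Spearman's rho the counts were 0 in calcium-high and 6 in calcium-low libraries. The median r was 0.304 in calcium-high and 0.706 in calcium-low libraries, and the difference between these was not tested. In calcium-high libraries the relations that passed were Cd34 with Flt3 (r = 0.881, exact permutation p = 0.00972, adjusted 0.0371, rho = 0.821) and Cd27 with Notch1 (r = 0.904, exact permutation p = 0.00833, adjusted 0.0371, rho = 0.714). Without the 2 libraries farthest from the median of the first gene, r was 0.668 for Cd34 with Flt3 and 0.676 for Cd27 with Notch1.

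In calcium-low libraries Cd34 ran with Satb1 (r = 0.987, exact permutation p = 3.97e-04, adjusted 0.00556, rho = 0.964) and with Cd27 (r = 0.972, exact permutation p = 1.98e-04, adjusted 0.00556, rho = 1.0). These relations kept r at 0.944 and 0.977 when replicates 2 and 3, the farthest from the median, were left out. Cd34 with Flt3 had r = 0.933 (exact permutation p = 0.00774, adjusted 0.0371, rho = 0.75) but only 0.312 without replicates 2 and 3, so that relation rests on those libraries. The same holds for the other Flt3 relations that passed, with r falling to 0.215 for Satb1, 0.341 for Cd27 and 0.304 for Notch1. All of these points share library depth and library set. With the mean of each library set taken off, a description added after the values were seen, r in calcium-high libraries was 0.902 for Cd34 with Flt3 and 0.659 for Cd27 with Notch1. In calcium-low libraries it was 0.965 for Cd34 with Satb1, 0.910 for Cd34 with Cd27 and 0.857 for Cd34 with Flt3. The difference between calcium-high and calcium-low of the same number, taken as a description, correlated at 0.877 between Cd34 and Flt3 and at 0.900 between Emb and Notch1 over 7 pairs. Between Cd34 and Notch1 it correlated at -0.0684.

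**Figure D4:**
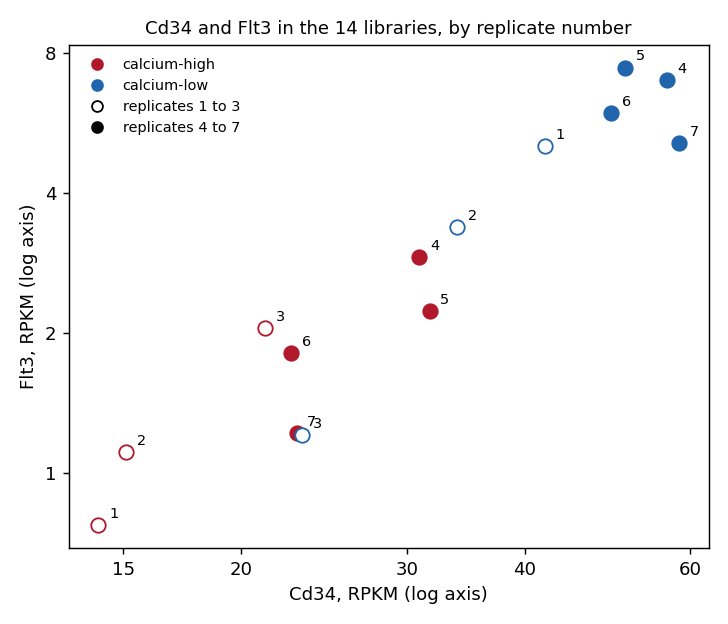
Flt3 against Cd34 in RPKM on log axes for 7 calcium-high (red) and 7 calcium-low (blue) libraries, numbered by replicate, open for replicates 1 to 3 and filled for replicates 4 to 7. Calcium-low replicate 3 (23.2 RPKM of Cd34 and 1.21 RPKM of Flt3) lies beside calcium-high replicate 7 (22.9 and 1.22 RPKM), and the other 6 calcium-low libraries lie above and to the right of all calcium-high libraries.

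The genes whose pattern was most like that of Cd34, over 14 libraries with the mean of each group taken off and among 4122 other genes with a mean of at least 5 RPKM, were Rabggta (r = 0.954), Fam117a (r = 0.951), Arhgap30 (r = 0.951), Ppan (r = 0.950) and Irf2bp2 (r = 0.944). For Flt3 they were Sh2d5 (r = 0.924), Rasal3 (r = 0.909), Arhgap30 (r = 0.907), Fgd2 (r = 0.903) and Aff3 (r = 0.887). Arhgap30 was the gene on both lists. It was at 8.08 ± 1.72 RPKM in the calcium-high group and 12.4 ± 3.14 RPKM in the calcium-low group (SD, n = 7 each), a log2 fold change of -0.54 with a limma adjusted p of 0.396 without the block and 0.0714 with it. Ppan and Rabggta, near to Cd34 across libraries, had log2 fold changes of -0.14 and -0.08 between the groups. These likenesses are a description, since all genes share the same libraries and depth.

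Around the members, 9 lists of pathway genes were counted in the same fits, and 0 of their tested genes passed with or without the block. Of all tested genes 0% passed without the block, and with it 0.433% were called lower and 0.484% higher. At such low shares a count of 0 does not show that the lists are unchanged. The median log2 fold change of all tested genes was -0.03. Of the 19 lymphoid transcription factors with a label, 13 were tested, 5 with a positive and 8 with a negative log2 fold change, and their median was -0.03. Id2, an inhibitor of E proteins, was at 1.54 ± 0.657 RPKM in the calcium-high group and 0.763 ± 0.248 RPKM in the calcium-low group (SD, n = 7 each; log2 fold change 0.50, limma adjusted p = 0.443 without the block and 0.170 with it). Its limma adjusted p was 0.0240 without replicate 3, but it reached the level for testing through the calcium-high group, where it is higher. Gata3, a factor of T cells and HSCs, had a log2 fold change of 0.36, and Ikzf2 (Helios) of -0.24, lower in the calcium-high library of 7 of 7 pairs. Ebf1 and Pax5, which commit cells to the B lineage, had means of 0.00473 and 2.62e-04 RPKM over all libraries.

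Of the FLT3 ligand and signalling genes 11 of 11 were tested, with a median log2 fold change of -0.02. Flt3l, the ligand, was at 3.40 ± 0.376 RPKM in the calcium-high group and 2.83 ± 1.06 RPKM in the calcium-low group (SD, n = 7 each; log2 fold change 0.25, limma adjusted p = 0.876 without the block and 0.416 with it). Grb2, the adaptor of receptor tyrosine kinases, had a log2 fold change of -0.24 and Stat5b, which carries the signal to the nucleus, of -0.14. In the interleukin-7 receptor pathway 10 of 12 genes were tested, 8 of them with a negative log2 fold change and a median of -0.10. Cish, a feedback inhibitor of STAT5 signalling, was at 3.56 ± 0.966 RPKM in the calcium-high group and 2.48 ± 0.788 RPKM in the calcium-low group (SD, n = 7 each; log2 fold change 0.40, limma adjusted p = 0.631 without the block and 0.226 with it), and was higher in the calcium-high library of 7 of 7 pairs. Socs3, another inhibitor of cytokine signalling, had a log2 fold change of -0.31, and Bcl2, which protects cells from death, of -0.17.

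Of the 9 genes of the V(D)J recombinase and pre-B receptor, Cd79b alone was tested (log2 fold change 0.01), and Rag1 and Rag2, the recombinase that acts beside terminal transferase, had means of 0.0178 and 0.0262 RPKM. Of the end-joining genes 7 of 9 were tested, with a median of -0.07, and Prkdc, Xrcc6 and Nhej1 had log2 fold changes of -0.11, -0.09 and 0.10. In the Notch pathway 20 of 29 genes were tested, 12 with a positive and 8 with a negative log2 fold change and a median of 0.04. Maml3, a coactivator of Notch receptors, was at 3.25 ± 0.749 RPKM in the calcium-high group and 4.87 ± 1.73 RPKM in the calcium-low group (SD, n = 7 each; log2 fold change -0.42, limma adjusted p = 0.734 without the block and 0.195 with it). Psen2, of the gamma-secretase that releases the Notch fragment, and Lfng, which modifies the receptor, had log2 fold changes of 0.27 and 0.24. Cd70, the ligand of CD27, was listed at 0 in every library, and the adaptors Traf2, Traf3 and Siva1 had log2 fold changes of 0.05, -0.05 and 0.14.

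Podxl, a sialomucin of the CD34 family, had a log2 fold change of the opposite sign to Cd34. It was at 2.28 ± 0.803 RPKM in the calcium-high group and 1.10 ± 0.415 RPKM in the calcium-low group (SD, n = 7 each), and the log2 fold change was 0.62. It was higher in the calcium-high library of 7 of 7 pairs, as were 2.49% of all tested genes. The limma adjusted p was 0.289 without the block, 0.0654 with it and 0.0155 without replicate 3, and 5.04e-04 with limma-voom on recovered reads, where 4.48% of tested genes were called higher. Bsg and Slc16a1, which are a relative of embigin and a lactate transporter, had log2 fold changes of 0.07 and -0.13.

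Of 10 surface genes of multipotent and lymphoid progenitors 5 were tested, 4 of them with a negative log2 fold change and a median of -0.29. Cd44, a hyaluronan receptor, had a log2 fold change of -0.29 and was lower in the calcium-high library of 7 of 7 pairs. Cd48, a surface protein of multipotent progenitors, was at 1.05 ± 0.904 RPKM in the calcium-high group and 1.54 ± 0.622 RPKM in the calcium-low group (SD, n = 7 each; log2 fold change -0.40, limma adjusted p = 0.876 without the block and 0.416 with it). Ly6d, a mark of B-lineage-primed lymphoid progenitors, was listed at 0 in all libraries. Limma-voom on recovered reads called Cd44, Socs3, Maml3 and Ikzf2 lower, and 3 lymphoid transcription factors, Id2 and Gata3 among them, higher. In that fit 2.58% of all tested genes were called lower and 4.48% higher. Id2 reached the level for testing through the calcium-high group, so its call is a description only.

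**Figure D5:**
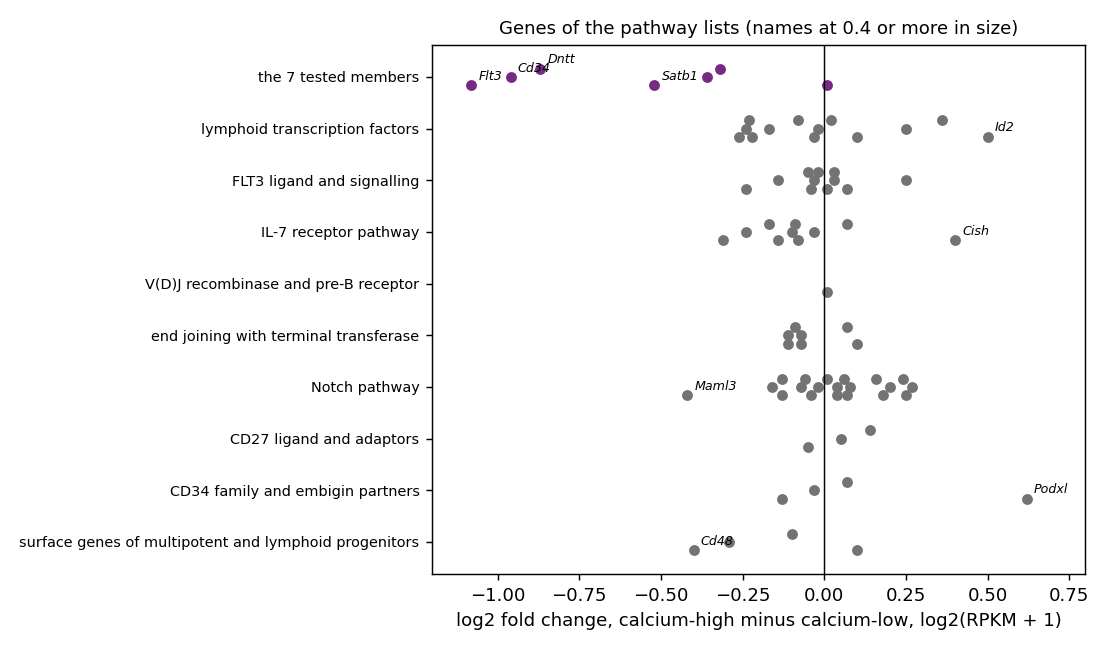
Log2 fold change of log2(RPKM + 1), calcium-high minus calcium-low, for the 7 tested members (purple) and tested genes of the 9 pathway lists (grey). Each gene drawn has 1 point in each list that holds it, with names where the size is 0.4 or more. Cd34, Flt3 and Dntt lie farther below 0 than any list gene drawn, and Podxl lies farthest above it.

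Markers of the other cell types that a sort of HSCs could hold were summed in each library. The 10 markers of T and NK cells summed to 6.75 to 22.9 RPKM in the calcium-high group and 14 to 36.0 RPKM in the calcium-low group, 2 of the 10 had a mean of at least 1 RPKM and 3 were at 0 in all libraries. Most of that sum was Nkg7, a granule protein of NK cells. It was at 3.38 to 18.1 RPKM in the calcium-high group and 11.4 to 33.0 RPKM in the calcium-low group. Klrb1c ran the other way, at 0.461 to 1.70 RPKM in the calcium-high group and 0 to 0.490 RPKM in the calcium-low group. Gzma was at 0 in all libraries. The 9 B cell markers summed to 2.92 to 6.11 RPKM in the calcium-high group and 3.64 to 6.28 RPKM in the calcium-low group, with Cd79b alone above 1 RPKM. The 8 dendritic cell and monocyte markers reached 39.4 RPKM in a calcium-high library, against at most 4.66 RPKM in calcium-low libraries, and none of the 8 endothelial markers had a mean of 1 RPKM. Their part in the levels of Cd34, Flt3 and the lymphoid genes was not tested.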

How the data were processed

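The authors deposited an RPKM table for each library. The file headers name no unit, and RPKM was read from the values. The submitters' processing notes name GRCm38, mm10 and edgeR, without a role or version; the aligner and annotation are not given in the sources used here. Each file lists 48737 labels, of which 23 not shared between files were left out. The members and gene lists were chosen with earlier results of these data known.

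Genes with a mean of at least 1 RPKM (9921) entered a two-sided limma fit (3.58.1, in R 4.3.3) of log2(RPKM + 1) that models the trend of variance with level. Differences are calcium-high minus calcium-low, called at 0.05 after Benjamini-Hochberg adjustment. The pseudocount shrinks fold changes of low genes. All values of 9848 genes above 0 in all libraries resolved to whole reads within 0.02 reads, against 0 of 500 jittered genes, and limma-voom with library quality weights was run on these reads as an alternative. Depth was 3.58 to 10.3 M reads in listed genes. Counting floors are 3 reads and cover counting error only. The titles number the libraries 1 to 7 in both groups. Deviations from the group means of libraries with the same number were correlated at 0.384 to 0.715 in all 7 pairs, over the minimum of 0.1, so the number was taken as a block in a second fit. Only 5 of 14 libraries correlated best with their own number. The means of the library sets were not taken off, so the check does not show that the numbers are true pairs. Replicates 1 to 3 and 4 to 7 were treated as library sets from the order of the listing. The limma fit of log2(RPKM + 1) was tested on simulated data. Named were all 8 members, of each list the genes called or else the 3 with the smallest p, and for Cd34 and Flt3 the 5 most similar genes. A list gene that the rule names is not reported here. Exact tests were run with scipy 1.17.1 and numpy 2.4.6 under Python 3.11.15, tables with pandas 2.3.3, figures with matplotlib 3.10.9. Coordinates are from GENCODE on GRCm38, and windows from RefSeq. Alternatives changed the scaling, filter, pseudocount, test, covariates and libraries.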

Additional observations from a re-analysis of the deposited data

Results flagged for a closer look

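There were 16 groups of 7 libraries, 1 for each member and calcium group. In each, the library farthest from the others was compared with the range of its group, and 3 libraries stood out. The measure picks about 1 in 20 groups by chance only where values are normally distributed. Il7r had few or no reads in most libraries and Dntt was widely spread, so that rate does not hold for them. Il7r was at 0.186 RPKM, from 19 reads, in calcium-high replicate 5, against 0 to 0.0128 RPKM in the rest of the calcium-high group. Il7r was at 0.307 RPKM, from 34 reads, in calcium-low replicate 6, against 0 to 0.0270 RPKM in the rest of the calcium-low group. Dntt was at 11.4 RPKM, from 839 reads, in calcium-low replicate 5, against 0.163 to 4.22 RPKM in the rest of the calcium-low group. Each gene stood out in a library that belongs to replicates 4 to 7.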

How the results depend on the processing

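The count of members called lower was 0 without the block and 2 with the replicate block (Cd34 and Flt3). It was 3 with limma-voom on recovered reads and in replicates 4 to 7 alone (Cd34, Flt3 and Satb1), and 2 with the library set as a term. Without the block and without both libraries numbered 3, chosen after seeing the data, it was 3. Choices joined after seeing the data gave 5 for the block with limma-voom, adding Cd27 (adjusted p = 0.0178) and Dntt (adjusted p = 0.0371), and 2 for the block with median-of-ratios scaling. Leaving out each library in turn gave 0 to 3, and only without calcium-low replicate 3 was it above 0. Leaving out each pair with the block also gave 0 to 3: 3 without pair 3, 1 (Cd34) without pair 5 and 0 without any other pair. So with the block the calls of Cd34 and Flt3 are lost when any of pairs 1, 2, 4, 6 and 7 is left out, when Cd34 had adjusted p of 0.0571 to 0.149 and Flt3 of 0.0885 to 0.168. None was called higher in any of 36 alternatives. Cd34 kept its sign in 36 of 36 alternatives (log2 fold change -1.15 to -0.84), Flt3 in 35 of 35 (-1.76 to -0.55) and Satb1 in 35 of 35 (-1.34 to -0.16); with the number of genes detected as a covariate, the adjusted p was 0.540 for Cd34 and Flt3. The count of ratios that differed was 6, 0 with exact sign flips over pairs (the replicate block), and 4 to 11 leaving out 1 library. The 6 include Satb1 per Notch1, which is a description only. The log2 fold change of Dntt was 0.08 in replicates 1 to 3 alone. That of Notch1 turned negative with limma-voom and in replicates 1 to 3 alone (-0.05 in each), and ranged from -0.11 to 0.14 leaving out 1 library and from -0.05 to 0.04 with the block leaving out 1 pair, with -0.00715 without pair 2 and -0.01 without pair 5. The causes were not tested. Il7r rests on at most 34 reads in a library.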
